A study of Mus musculus with 6 samples.

Results

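The genes described here are interferon-stimulated genes, measured in 6 whole primary mammary tumours on Affymetrix arrays, 1 array per tumour. A list of 33 genes was given by name, and each gene was taken as its brightest probe set with a single gene symbol, judged on the mean over all 6 arrays. By that rule 29 of the 33 genes were represented among the 20401 genes measured. The list was separated into genes known mainly as targets of type I interferon (21 listed, 18 represented) and genes known mainly as targets of interferon gamma (12 listed, 11 represented). The tumours grew in female Balb/c mice from 100000 cells of 4T1.2, a metastatic mouse mammary carcinoma line, placed in the mammary fat pad at 6 to 8 weeks of age. The retroviral vector pBabepuro was in the cells of all 6: empty in control tumours 1 to 3, and with murine Bmp4 in Bmp4 tumours 1 to 3. All tumours therefore came from a retrovirally transduced line in mice with their own immune system, and each was taken at about 0.3 g. Whether separate mice bore the tumours is not stated, so p-values measure only how these tumours varied.

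Interferons are secreted proteins that alarm cells to infection and shape anti-tumour immunity. Type I interferons are made by many cell types. They act through the receptor chains IFNAR1 and IFNAR2 and a complex that contains STAT2 and IRF9 and binds a DNA motif called the interferon-stimulated response element (ISRE) in antiviral genes such as Ifit1, Oas2 and Rsad2. Interferon gamma is made mainly by T cells and NK cells. It acts through IFNGR1 and IFNGR2, leads to binding at the gamma-activated site (GAS), and induces factors such as IRF1, chemokines that attract T cells, and GTPases that attack pathogens inside cells. The division is not strict, since several genes of either class respond to both kinds of interferon.

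All levels below are log2 values, and differences are Bmp4 minus control on that scale. Control tumour 1 was unlike the others, with r = 0.655 to 0.719 against them over all probe sets (not independent of each other), while r among the other 5 was 0.959 to 0.993. Each result is therefore given with all 6 arrays and without control tumour 1. In the deposited table of the authors' own comparison, log2 ratios correlated across probe sets at r = 0.965 with differences computed without control tumour 1, and at 0.749 with those of all 6 arrays. As a sign of RNA quality, the 3' probe set of Actb exceeded its 5' probe set by 5.64, 4.18 and 2.62 in the control group and by 1.44, 2.32 and 2.33 in the Bmp4 group, with no overlap. For Gapdh the same difference was 2.46, 5.31 and 3.93 against 1.62, 3.13 and 2.42, with overlap, and control tumour 1 was the lowest control. Array-wide measures also differed between the groups with no overlap. The interquartile range over probe sets was 2.25, 3.36 and 3.64 in the controls and 3.77, 3.67 and 3.71 in the Bmp4 group. The mean of the hybridization control probe sets was 13.01, 11.23 and 10.66 against 10.04, 10.04 and 10.3. Leaving out control tumour 1 therefore did not make the groups alike in these measures. The part of RNA quality or of these array measures in any result below was not tested. The carcinoma keratins Krt8 (12.10 to 13.03) and Krt18 (9.82 to 12.07) were bright on every array. The Bmp4 probe set was not higher in the Bmp4 tumours (5.16 ± 0.30 against 5.8 ± 0.75, SD, n = 3 each), and since it is not known whether its probes lie within the cloned Bmp4 sequence, it checks no label.

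Genes of the interferon gamma class had higher means in the Bmp4 tumours, whereas the type I class went both ways. With all 6 arrays, the difference was above 0 in 11 of 11 gamma members (median 1.14) and in 14 of 18 type I members (median 0.36). Without control tumour 1 it was above 0 in 10 of 11 gamma members (median 0.42) and in 10 of 18 type I members (median 0.13). Over all genes the share above 0 was 44.5% with all 6 arrays (median -0.12) and 44.3% without control tumour 1 (median -0.04). Members are bright, however, with 26 of 29 above the median gene (6.61). Among the genes above that median, the share above 0 was 75% (median 0.57) and 59.1% (median 0.10) in the 2 settings. The type I class thus lay near other bright genes in both settings. Those genes are a looser match for the gamma class, which is brighter. Above the 75th percentile of probe sets by mean signal were 10 of 11 gamma members, 12 of 18 type I members and 7084 of the 10200 bright genes. No comparison with genes as bright as the gamma class was made. Control tumour 1 was the lowest of the 6 tumours in 10 of 11 gamma members, 11 of 18 type I members and 69.2% of these bright genes. The contrast between the classes also depended on the control used. Against control tumour 3 alone the medians were 0.85 for the gamma class and -0.10 for the type I class. Against control tumour 2 alone they were 0.31 and 0.30. Whether the classes differed from each other was not tested.

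No member passed the threshold of adjusted p under 0.05 in limma, a linear model that pools the spread over genes, with Benjamini-Hochberg adjustment over all 20401 genes. The smallest adjusted p among members was 0.496 with all 6 arrays, where 0.0% of all genes were called higher and 0.0% lower. It was 0.273 without control tumour 1, where 0.0196% of all genes were called higher and 0.0% lower. With unadjusted p below 0.05, 1 gamma member (Cxcl9) was higher with all 6 arrays, against 3.74% of all genes higher and 1.16% lower. Without control tumour 1 these were 4 gamma members higher (Cxcl9, Igtp, Irgm1 and Irf8), 1 type I member higher (Irf9) and 1 lower (Rsad2). Of all genes, 9.07% were then higher and 5.67% lower. Of the 10200 genes above the median signal, 607 were higher and 130 lower by this cut with all 6 arrays. Without control tumour 1 these numbers were 1544 and 683. All Bmp4 values exceeded all control values in 5 of 11 gamma members with all 6 arrays, against 12.9% of all genes and 22.5% of those above the median signal. Without control tumour 1 it did so in 6 of 11, against 15.9% and 24.2%. In the type I class, 1 of 18 members lay wholly above and 1 wholly below with all 6 arrays, and 2 and 2 without control tumour 1. Of all genes, 13.6% lay wholly below with all 6 arrays and 18.3% without control tumour 1. Of those above the median signal, 6.1% and 14.0% did.

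**Figure D1:**
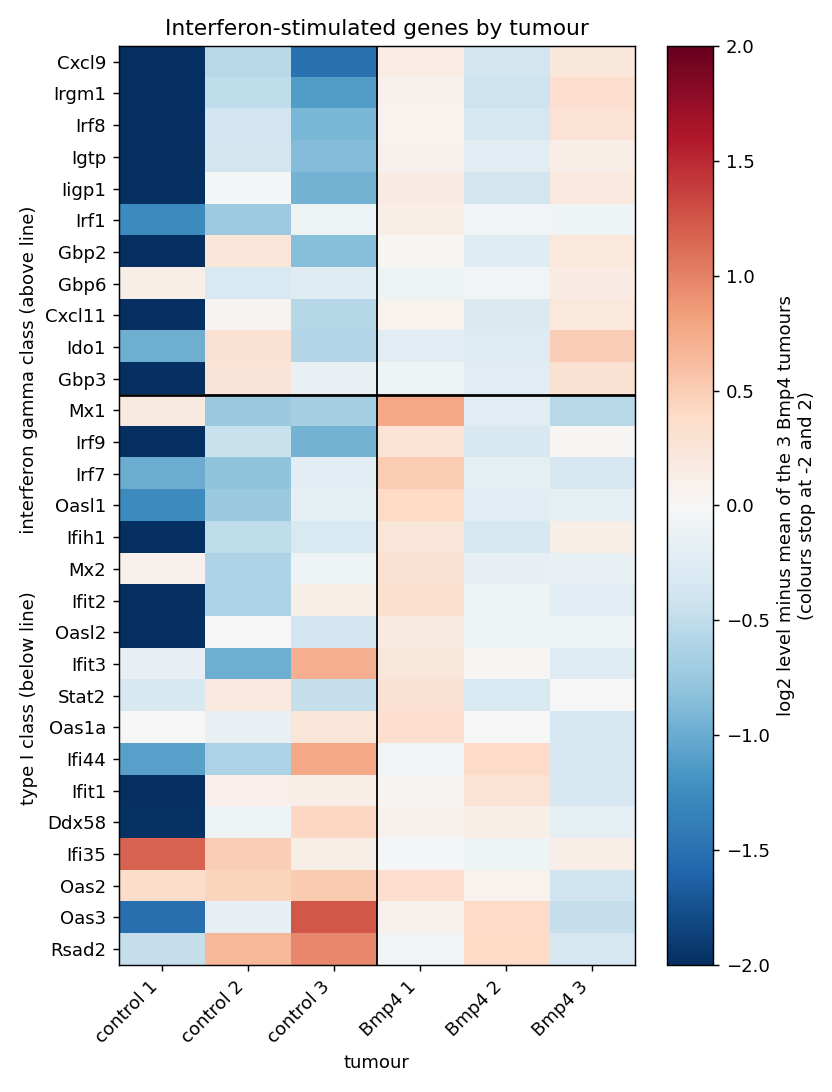
Level of each of the 29 represented genes (rows) in each tumour (columns), as log2 level minus the mean of the 3 Bmp4 tumours, with the interferon gamma class above the line and the type I class below it. Control tumour 1 is the lowest of the 6 in 21 of 29 genes, and control tumours 2 and 3 lie below the Bmp4 mean in most gamma genes but on both sides of it in the type I class.

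Cxcl9, a chemokine that draws activated T cells and NK cells through the receptor CXCR3, had the smallest p of the gamma class. Control tumours 1 to 3 gave 8.52, 10.50 and 9.57, and Bmp4 tumours 1 to 3 gave 11.21, 10.69 and 11.29. All Bmp4 values exceeded all control values, although Bmp4 tumour 2 and control tumour 2 were close. The difference was 1.53 ± 0.53 (SE; limma adjusted p = 0.496), a 2.89-fold higher mean, and 1.03 ± 0.32 (SE; limma adjusted p = 0.278), or 2.04-fold, without control tumour 1. A ratio of 2.05 is in the authors' deposited table. A second Cxcl9 probe set, 1456907_at, differed by 0.47 and, without control tumour 1, by 0.56.

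The immunity-related GTPases Irgm1, Igtp and Iigp1 act against microbes held in vacuoles. For Irgm1, a regulatory member of this family, the values were 6.95, 9.89 and 9.29 in the controls and 10.48, 9.99 and 10.73 in the Bmp4 group. Its difference was 1.69 ± 0.76 (SE; limma adjusted p = 0.496), and 0.81 ± 0.28 (SE; adjusted p = 0.293) without control tumour 1. Igtp, also a regulatory member, was at 10.05, 12.25 and 11.75 in the controls and at 12.70, 12.40 and 12.76 in the Bmp4 group. Its differences in the 2 settings were 1.27 and 0.63. For both genes the groups did not overlap, and control tumour 1 was far below the other controls. Iigp1, an effector that coats the vacuole, was at 9.49, 11.79 and 10.88 in the controls and 11.99, 11.45 and 12.01 in the Bmp4 group. Its groups overlapped, because control tumour 2 lay above Bmp4 tumour 2, and it differed by 1.10 and by 0.49 without control tumour 1.

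Irf1 and Irf8 encode transcription factors of the interferon regulatory factor family. Irf1, an early target of interferon gamma, was at 11.38, 11.93 and 12.56 in the controls and 12.80, 12.60 and 12.58 in the Bmp4 group. The groups did not overlap, but control tumour 3 lay within 0.1 of the Bmp4 mean (12.66 ± 0.13, SD, n = 3). Its difference was 0.70 ± 0.35 (SE), and 0.42 ± 0.22 (SE) without control tumour 1. Irf8, which directs the development of macrophages and dendritic cells besides responding to interferon gamma, was at 6.53, 10.26 and 9.73 in the controls and 10.72, 10.30 and 10.94 in the Bmp4 group. Its difference of 1.81 with all 6 arrays, the largest of the gamma class, became 0.66 without control tumour 1. Its other probe set, 1448452_at, differed by -0.13 and then 0.09. The size of the Irf8 difference thus depended on the probe set, and with all 6 arrays its direction did too.

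**Figure D2:**
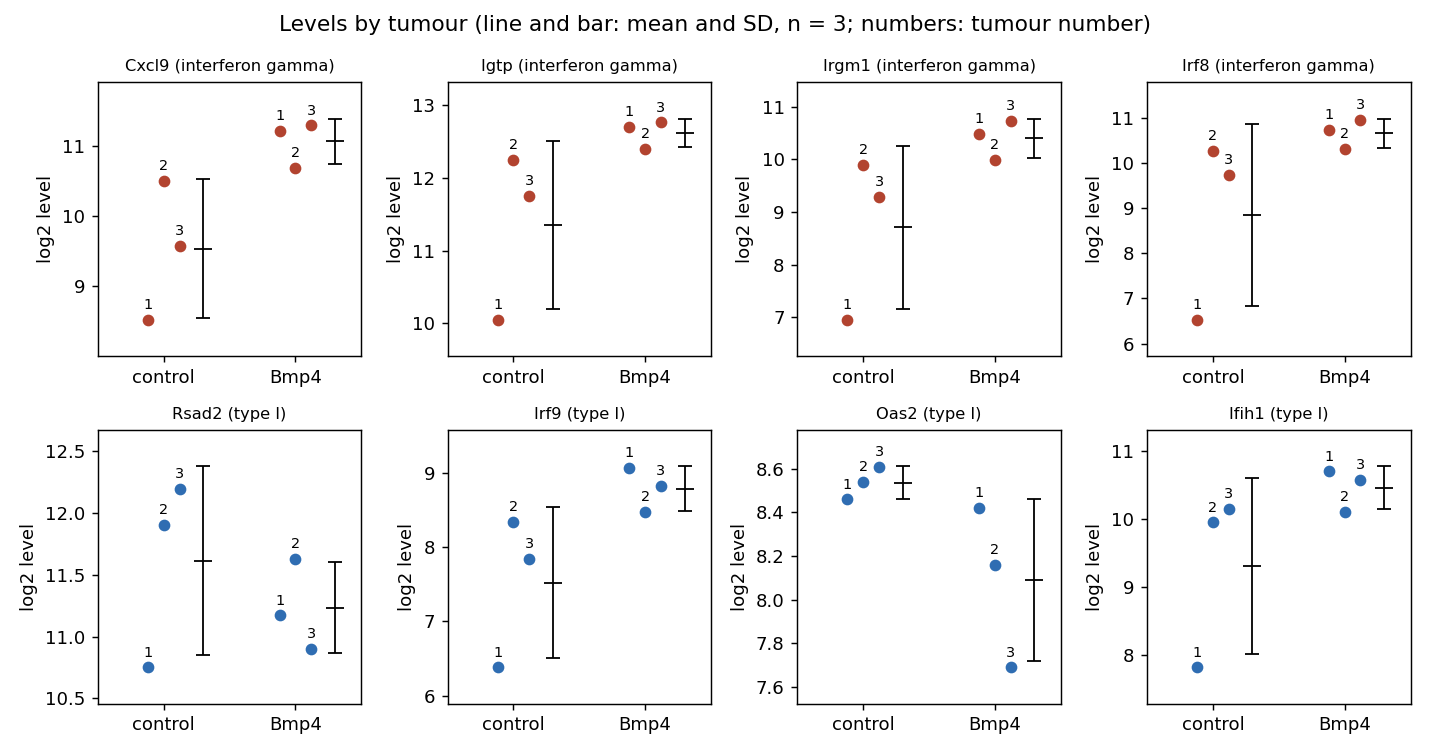
Log2 level in each tumour (points, numbered by tumour) for the 4 genes of each class with the smallest p without control tumour 1, with the mean and SD of each group (n = 3) beside them and an axis of its own for each gene. Cxcl9, Igtp, Irgm1, Irf8 and Irf9 have all Bmp4 values above all control values, Oas2 has every Bmp4 tumour below, and Rsad2 has every Bmp4 tumour below control tumours 2 and 3.

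Gbp2, Gbp3 and Gbp6 encode guanylate-binding proteins, GTPases that bind pathogen membranes and are strongly induced by interferon gamma. All 3 overlapped between the groups with all 6 arrays. Gbp2 was at 9.25, 12.30 and 11.21 in the controls and 12.10, 11.81 and 12.27 in the Bmp4 group, with control tumour 2 the highest of all. It differed by 1.14 and, without control tumour 1, by 0.31. The chosen Gbp2 probe set (1435906_x_at) carries the suffix that Affymetrix gives to sets whose probes can match other sequences, and a second set, 1418240_at, differed by 2.22 and 0.99. Gbp3 differed by 1.48 with all 6 arrays and by -0.04 without control tumour 1, so its difference rested on that array (7.13, against 11.44 to 11.95 on the other 5). Gbp6 differed by 0.14 and 0.27, and its second probe set, 1438676_at, by 1.55 and 0.83. These genes are close paralogs, so signal from a related gene was not separated.

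Of the remaining gamma members, Ido1, the enzyme that degrades tryptophan and restrains T cells, was at 4.83, 6.11 and 5.23 in the controls and 5.58, 5.55 and 6.30 in the Bmp4 group. The groups overlapped, and the differences of 0.42 and 0.14 were below or equal to their standard errors of 0.42 and 0.34. Cxcl11, another ligand of CXCR3, differed by 0.85 and 0.25, while its dim second probe set, 1419698_at (mean 4.01), differed by -1.08 and -0.55. The reference table used for names lists Cxcl11 as a transcribed pseudogene in the C57BL/6J mouse, and the tumours here are of Balb/c.

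Promoter sequences of gamma class genes are shown to place the 2 interferon motifs. Each stretch has 150 bases, from 130 before to 20 from the start site, in the sense of the gene, from RefSeq on GRCm38.p6. Capitals mark matches to the ISRE letters (GAAA, then any 2 bases, then GAAA) on either strand or to the GAS letters TTCNNNGAA, which read the same on both strands. The stretches are chr3:142620533-142620682, plus strand for Gbp2, chr11:58199426-58199575, plus strand for Igtp, chr11:48871401-48871550, minus strand for Irgm1, chr11:53769884-53770033, plus strand for Irf1, and chr5:92328060-92328209, minus strand for Cxcl9.
Gbp2: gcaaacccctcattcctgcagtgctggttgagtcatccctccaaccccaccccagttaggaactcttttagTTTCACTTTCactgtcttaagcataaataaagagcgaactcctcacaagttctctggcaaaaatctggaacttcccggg
Igtp: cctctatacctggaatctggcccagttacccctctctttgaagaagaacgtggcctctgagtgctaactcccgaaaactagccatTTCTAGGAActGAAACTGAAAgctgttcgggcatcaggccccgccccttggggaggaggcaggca
Irgm1: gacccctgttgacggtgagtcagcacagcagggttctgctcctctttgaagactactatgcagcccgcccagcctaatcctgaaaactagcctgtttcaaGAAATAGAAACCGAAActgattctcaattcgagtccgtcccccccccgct
Irf1: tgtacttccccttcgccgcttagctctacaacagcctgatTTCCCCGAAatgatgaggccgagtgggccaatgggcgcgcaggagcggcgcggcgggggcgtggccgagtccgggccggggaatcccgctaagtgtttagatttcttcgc
Cxcl9: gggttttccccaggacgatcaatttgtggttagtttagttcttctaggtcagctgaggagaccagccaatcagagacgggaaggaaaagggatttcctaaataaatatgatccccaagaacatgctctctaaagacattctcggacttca
Gbp2 has an ISRE match that begins 59 bases before the start site. In Igtp a GAS match (45 bases before) and an ISRE match (34 bases before) lie side by side, and Irgm1 has overlapping ISRE matches 30 and 24 bases before the start. Irf1 has a GAS match 90 bases before the start. Neither set of letters is in the Cxcl9 window.

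In the type I class, directions differed between genes. Among its transcription factors, Irf9, the DNA-binding subunit of the complex at the ISRE, was at 6.38, 8.34 and 7.84 in the controls and 9.07, 8.47 and 8.82 in the Bmp4 group. The groups did not overlap, and the difference was 1.27 ± 0.53 (SE; limma adjusted p = 0.496), or 0.70 ± 0.24 (SE; adjusted p = 0.293) without control tumour 1. Its partner Stat2 was at 6.75, 7.27 and 6.6 in the controls and 7.37, 6.76 and 7.08 in the Bmp4 group, with overlap and differences of 0.20 and 0.13. Irf7, the factor that amplifies interferon alpha production, was at 8.43, 8.61 and 9.21 in the controls and 9.93, 9.22 and 9.09 in the Bmp4 group. Only Bmp4 tumour 1 stood clearly above control tumour 3, and Irf7 differed by 0.67 ± 0.36 (SE), or 0.51 ± 0.31 without control tumour 1.

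Ifih1 and Ddx58 encode cytosolic sensors of viral RNA. Ifih1, which encodes MDA5, was at 7.82, 9.95 and 10.15 in the controls and 10.70, 10.11 and 10.58 in the Bmp4 group. Its groups overlapped slightly, since control tumour 3 lay above Bmp4 tumour 2, and the differences were 1.16 and 0.41. Ddx58, which encodes RIG-I, differed by 0.56 with all 6 arrays and by -0.15 without control tumour 1. A dim second probe set, 1446457_at, differed by -0.50 and -0.30.

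Rsad2 and Oas2 were the type I members with every Bmp4 tumour below control tumours 2 and 3. Rsad2 encodes viperin, an enzyme that makes a chain-terminating nucleotide against viruses. Its level was 10.75, 11.90 and 12.19 in the controls and 11.17, 11.63 and 10.90 in the Bmp4 group. With all 6 arrays the groups overlapped through control tumour 1 alone, and the difference was -0.38 ± 0.45 (SE; limma adjusted p = 0.577). Without that array it was -0.81 ± 0.24 (SE; limma adjusted p = 0.273), a 1.75-fold lower mean, and the ratio in the authors' deposited table is 0.571. The other Rsad2 probe sets differed, without control tumour 1, by -0.52 (1421009_at) and by 0.35 (1421008_at), so the direction depended on the probe set.

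The oligoadenylate synthetases sense double-stranded RNA and make a messenger that sets off RNA decay. Oas2 was at 8.46, 8.54 and 8.61 in control tumours, the tightest control group of any member (SD 0.07, n = 3), and at 8.42, 8.16 and 7.69 in the Bmp4 group. The groups did not overlap with or without control tumour 1, but Bmp4 tumour 1 came within 0.1 of the controls. The differences were -0.45 ± 0.28 (SE) and -0.48 ± 0.23 (SE). Oas3 differed by 0.14, and by -0.54 without control tumour 1, with control tumours 2 and 3 far apart at 6.74 and 8.14. Oas1a differed by -0.03 and -0.05, with levels of 10.07 to 10.74 over all tumours.

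Oasl1 and Oasl2 encode relatives of these enzymes. Oasl1, known in the mouse for holding back translation of Irf7, was at 6.64, 7.18 and 7.72 in the controls and 8.32, 7.70 and 7.74 in the Bmp4 group. Control tumour 3 lay above Bmp4 tumour 2, and the differences were 0.74 and 0.47. Oasl2 differed by 1.77 with all 6 arrays and by 0.19 without control tumour 1, which at 3.62 lay below the 25th percentile of its array (5.04).

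The Ifit genes encode proteins that hold foreign RNA away from ribosomes. Ifit1 was at 5.85, 8.39 and 8.4 in the controls and 8.34, 8.58 and 7.96 in the Bmp4 group. Apart from control tumour 1 the groups lay at the same height, and the difference of 0.75 became -0.10 ± 0.21 (SE). Ifit2 behaved alike, with 4.19 in control tumour 1 and differences of 1.77 and 0.25. Ifit3 was at 8.34, 7.53 and 9.22 in the controls and 8.72, 8.54 and 8.24 in the Bmp4 group, so the controls spanned the Bmp4 tumours, and it differed by 0.14 and 0.13.

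Mx1 and Mx2 encode dynamin-like GTPases that block viral replication, and many inbred mouse strains carry a defective Mx1. Mx1 was at 6.41, 5.48 and 5.57 in the controls and 7.0, 6.01 and 5.68 in the Bmp4 group. It differed by 0.41 ± 0.45 (SE), and by 0.71 ± 0.38 (SE) without control tumour 1, where every Bmp4 tumour lay above both controls but Bmp4 tumour 3 only narrowly. Mx2 differed by 0.21 and 0.36. Ifi44 differed by 0.31 and -0.08. Ifi35 differed by -0.59 and -0.30 on its chosen probe set, and by 1.14 and 0.17 on 1424617_at and 0.13 and -0.15 on 1459151_x_at, so its direction depended on the probe set too.

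**Figure D3:**
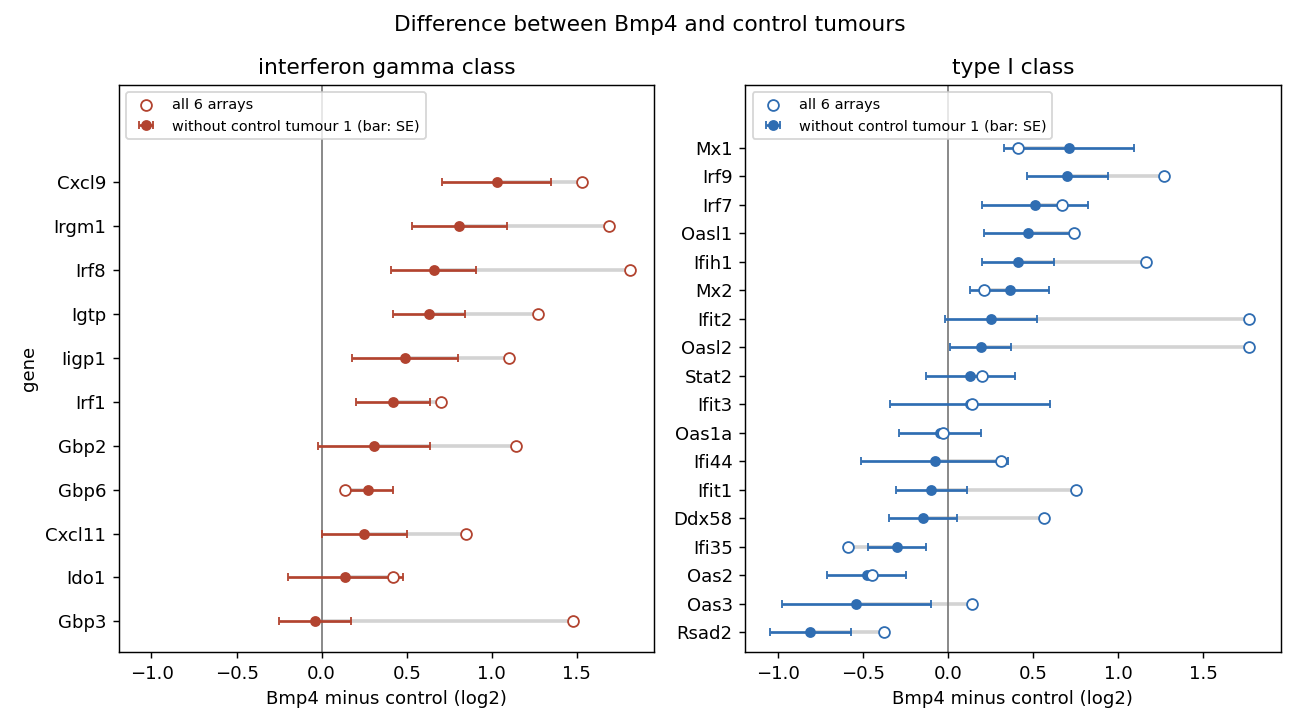
Difference between Bmp4 and control tumours (log2) for each gene of the interferon gamma class (left) and the type I class (right), with all 6 arrays (open circles) and without control tumour 1 (filled circles, bar: limma SE). Without control tumour 1 the gamma class runs from -0.04 for Gbp3 to 1.03 for Cxcl9, and the type I class from -0.81 for Rsad2 to 0.71 for Mx1.

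Promoters of 3 type I genes are shown for comparison, with the same length, capitals and source. They are chr12:26456433-26456582, minus strand for Rsad2, chr19:34640759-34640908, plus strand for Ifit1, and chr5:120777640-120777789, minus strand for Oas3.
Rsad2: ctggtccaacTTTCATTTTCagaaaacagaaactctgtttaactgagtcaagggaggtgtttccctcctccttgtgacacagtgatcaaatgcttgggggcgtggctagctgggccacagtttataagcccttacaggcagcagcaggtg
Ifit1: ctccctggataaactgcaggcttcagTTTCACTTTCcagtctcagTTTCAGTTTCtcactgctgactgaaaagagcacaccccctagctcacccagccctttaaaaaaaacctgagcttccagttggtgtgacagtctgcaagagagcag
Oas3: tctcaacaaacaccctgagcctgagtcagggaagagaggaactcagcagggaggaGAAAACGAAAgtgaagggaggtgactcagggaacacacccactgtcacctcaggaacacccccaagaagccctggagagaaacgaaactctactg
Rsad2 has an ISRE match that begins 120 bases before the start site, Ifit1 has matches 104 and 85 bases before, and Oas3 has a match 75 bases before. RefSeq held promoters for 25 of the 33 genes, and none was found for Gbp6, Cxcl11, Iigp1, Usp18, Mx2, Oas2, Ido1 and Mx1. Over windows of 300 bases (250 before to 50 from the start site), the ISRE letters were in 9 of 19 type I promoters (47.4%), 5 of 11 gamma promoters (45.5%) and 3.44% of all 32851 promoters. The GAS letters were in 3 of 19 type I promoters (15.8%), 3 of 11 gamma promoters (27.3%) and 8.30% of all promoters. A match describes letters only.

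The 2 classes also stood differently in control tumours 2 and 3. Control tumour 2 lay above control tumour 3 in 9 of 11 gamma members and in 4 of 18 type I members, against 55.1% of all genes and 43.7% of those above the median signal. Set against control tumour 3 alone, the Bmp4 mean was higher in 11 of 11 gamma members (median 0.85) and 8 of 18 type I members (median -0.10). Against control tumour 2 alone it was higher in 7 of 11 gamma members (median 0.31) and 12 of 18 type I members (median 0.30). The gamma members above both were Irf1, Irf8, Cxcl9, Gbp6, Igtp, Iigp1 and Irgm1, although Iigp1 was only 0.03 above control tumour 2. The type I members above both were Mx1, Mx2, Oasl1, Irf7, Irf9 and Ifih1, and those below both were Ifit1, Oas2, Rsad2 and Ifi35. In 6 type I members (Ifit2, Ifit3, Oas1a, Oas3, Ifi44 and Ddx58) the Bmp4 mean lay between the 2 controls, with control tumour 3 the higher. In Cxcl11, Gbp2, Gbp3, Ido1, Oasl2 and Stat2 it lay between them with control tumour 2 the higher. The direction thus depended on which of the 2 controls was used in 12 of 29 members.

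**Figure D4:**
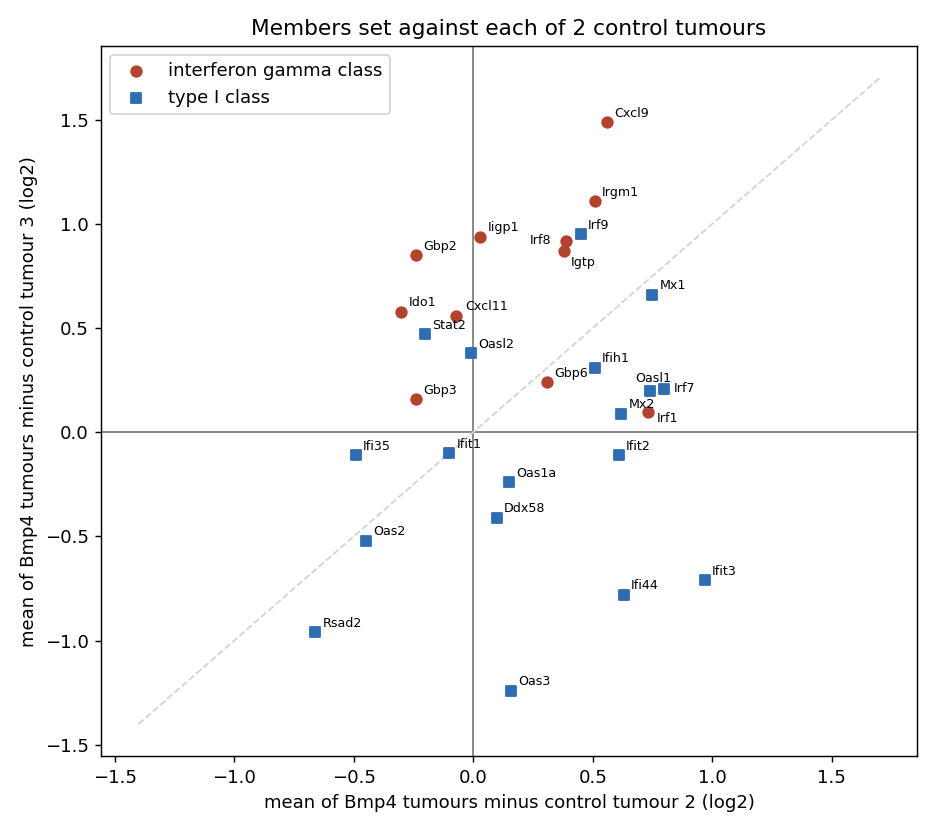
Mean of the 3 Bmp4 tumours minus control tumour 2 (horizontal axis) and minus control tumour 3 (vertical axis), both log2, for the 11 interferon gamma members (circles) and 18 type I members (squares); on the dashed line the 2 controls are equal. All circles lie above the horizontal line at 0 and 7 of 11 lie right of the vertical line, while squares lie in all 4 quadrants.

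Other genes of the pathway, from lists of known components, gave no call in limma with or without control tumour 1. Of 19 interferon genes, 9 were represented, and the difference was above 0 in 1 of them with all 6 arrays and in 2 without control tumour 1. Ifng, the gene of interferon gamma itself, was at 5.05, 6.39 and 8.57 in the controls and 8.32, 8.88 and 9.67 in the Bmp4 group. The groups overlapped because control tumour 3 lay above Bmp4 tumour 1, and the difference was 2.29 ± 0.90 (SE; limma adjusted p = 0.496), or 1.47 ± 0.67 (SE; adjusted p = 0.360) without control tumour 1. Control tumour 2 thus had less Ifng than control tumour 3, while most gamma members were higher in control tumour 2. Ifnb1, the gene of interferon beta, was dim, at 6.46, 5.11 and 5.01 in the controls and 4.91, 4.69 and 5.25 in the Bmp4 group. Ifnz differed by -1.47, and by -0.41 without control tumour 1, which stood at 10.91 against 6.99 to 8.02 in the other 5. Ifna4 and Ifnab lay below the 25th percentile of probe sets on 5 and 6 of the 6 arrays.

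Of the 10 receptor and JAK-STAT genes, all were represented, and 8 had differences above 0 with all 6 arrays and 7 without control tumour 1. Ifngr1, the ligand-binding chain of the interferon gamma receptor, was at 7.21, 7.93 and 8.81 in the controls and 9.86, 9.10 and 9.63 in the Bmp4 group. It differed by 1.55 ± 0.47 (SE; limma adjusted p = 0.496), and by 1.16 ± 0.33 (SE; adjusted p = 0.265). Ifnar1, a chain of the type I receptor, differed by 0.81 and 0.65. In both genes the groups did not overlap. Jak1 differed by 1.51 and 0.47, and Ifnlr1, a chain of the type III interferon receptor, by -0.80 and -0.30.

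Among 6 feedback genes, Socs1, an inhibitor of JAK kinases, was at 8.90, 7.58 and 7.55 in the controls and 7.83, 7.87 and 7.46 in the Bmp4 group, and differed by -0.29 and 0.15. Pias1, an inhibitor of STAT signalling, differed by 0.98 and 0.65 with no overlap between the groups. Of 14 represented sensing genes, 11 had differences above 0 with all 6 arrays and 7 without control tumour 1. Irf5, a factor downstream of Toll-like receptors, differed by 1.01 and 0.95 with no overlap, and Mavs, the adaptor of RIG-I and MDA5, by 1.06 and -0.49.

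Of 11 represented gamma response genes outside the members, 10 had differences above 0 in both settings (medians 0.87 and 0.59), and all Bmp4 values exceeded all control values in 3 and then 5, against 12.9% and 15.9% of all genes and 22.5% and 24.2% of the bright ones. Ciita, the switch of MHC class II expression, was at 6.53, 5.40 and 5.87 in the controls and 6.61, 6.15 and 6.21 in the Bmp4 group, and differed by 0.39 and 0.69. Cd274, which encodes the checkpoint ligand PD-L1, differed by 1.38 and 0.72, Gbp8 by 2.19 and 1.25, Irgm2 by 2.38 and 0.57, and the Fc receptor Fcgr1 by 2.17 and 1.43. Of 22 represented type I response genes outside the members, 19 had differences above 0 with all 6 arrays (median 0.98) and 16 without control tumour 1 (median 0.27). Of these 22, 6 lay wholly above and 2 wholly below the controls with all 6 arrays, and 6 and 3 without control tumour 1. In the 2 settings, 12.9% and 15.9% of all genes lay wholly above, and 22.5% and 24.2% of the bright ones. Wholly below lay 13.6% and 18.3% of all genes, and 6.1% and 14.0% of the bright ones. Lgals3bp, a secreted glycoprotein, differed by 2.52 and 1.27, Parp9 by 1.77 and 0.64, and Trim21 by 0.58 and 0.69. Eif2ak2, the RNA-activated kinase PKR, went the other way, at 7.70, 7.69 and 7.45 in the controls and 6.80, 7.09 and 6.79 in the Bmp4 group, with no overlap and differences of -0.72 ± 0.25 and -0.68 ± 0.17 (SE; limma adjusted p = 0.496 and 0.243).

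Markers of T cells and NK cells, the main sources of interferon gamma, had higher summed levels in the Bmp4 tumours. In whole tumours, more cells of a type and more RNA per cell cannot be told apart. For 9 T cell markers, the log2 of the summed signal was 9.89 to 10.91 in the controls and 11.68 to 11.82 in the Bmp4 group, and 7 of the 9 had no overlap, with the Bmp4 group higher, in both settings (12.9% and 15.9% of all genes did). For 6 NK cell markers it was 8.95 to 10.01 and 10.29 to 11.22, and 3 of the 6 had no overlap with the Bmp4 group higher, but 2 of the 6 had lower means in the Bmp4 group in both settings (lowest differences -0.59 and -0.26). For 8 macrophage markers, which include Fcgr1, it was 11.87 to 14.14 and 13.67 to 14.50, with overlap. Their differences were above 0 in 7 of 8 with all 6 arrays (median 1.96) and in 8 of 8 without control tumour 1 (median 1.46). In both settings, 0 of the 8 lay wholly above the controls. For 5 markers each of plasmacytoid and conventional dendritic cells the summed levels overlapped as well (8.27 to 9.58 and 8.45 to 8.62, and 8.96 to 9.46 and 9.05 to 9.13). The plasmacytoid markers split, with 2 of 5 wholly above the controls, 1 wholly below and 3 with lower means in both settings. Of the conventional markers, 0 of 5 lay wholly above with all 6 arrays and 3 without control tumour 1. For 8 carcinoma markers the sums were 12.65 to 13.71 and 13.47 to 13.67, with overlap, but a sum follows the brightest markers. Their differences were below 0 in 5 of 8 with all 6 arrays (median -0.38) and in 4 of 8 without control tumour 1 (median -0.08). In these settings 3 and 4 of the 8 lay wholly below the controls, against 13.6% and 18.3% of all genes, and 0 lay wholly above. No marker of these lists was below the 25th percentile on all 6 arrays. Within the control group the T cell sum was lowest in control tumour 2 (9.89, against 10.49 and 10.91), while the median level of the gamma class was 8.52, 10.50 and 9.81 in the controls and 10.69 to 11.29 in the Bmp4 group. The part of these cells in the gamma class differences was not tested.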

How the data were processed

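Values for 45101 probe sets on 6 arrays were log2 expression deposited by the authors; RMA and Partek 6.6 are named in the submitters' processing notes. Which arrays were normalized together, and the annotation version, are not given in the sources used here. Besides these, the authors deposited a ratio and a p-value per probe set, from an analysis of variance per the file headers. The deposited F, signed fold change and sums of squares (score) were not used.

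Of the probe sets, 36859 had 1 symbol, updated through a RefSeq table of GRCm38.p6, which gave 20401 genes. Of the members, 26 had their symbol in the file and 3 (Irf9, Irgm1 and Ido1) an older symbol matched by transcript accession. Isg15, Usp18 and Cxcl10 share probe sets with other symbols and Xaf1 had no probe set under its symbol (these 4 are not counted).

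Genes were tested across all 20401 genes with limma 3.58.1 in R 4.3.3 (linear fit by group, eBayes, two-sided p), Benjamini-Hochberg adjustment and a threshold of 0.05; scripts were tested on simulated data. An exact two-sided permutation test of 3 against 3 cannot go below p = 0.1. Dim genes were kept, and the number of arrays limits the precision. The members, classes and lists were chosen with earlier results of these data known. All 33 members were to be named, 18 represented ones with every value (a set list, or the 4 smallest p of a class), probe sets that opposed the chosen one where either difference was above 0.5 in size, and of pathway genes Ifng, Ifnb1, Ciita, Socs1 and up to 4 of each list by p. Some items are not reported here. Further probe sets of Cxcl9, Gbp2, Gbp6 and Rsad2 were named after their values were seen. Alternatives were other arrays, normalizations, centrings, probe sets, filters and variance models. A background correction or a scan block was not possible from summarised values.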

Additional observations from a re-analysis of the deposited data

How the results depend on the processing

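No member passed the threshold of limma in any setting with 2 or more tumours in each group, except array weights, and 0 passed in the authors' deposited adjusted p. The array weight estimate stopped before it converged and gave control tumour 2 a weight of 44.8 and the other arrays 0.0268 to 2.27; it called 18 members and 11307 genes (gamma median 0.33), with reversed differences for Ifit1 (-0.15), Oasl2 (-0.01), Stat2 (-0.18), Cxcl11 (-0.03), Gbp2 (-0.19), Gbp3 (-0.19) and Ido1 (-0.23), and 0.11 for Oas1a. Tumour number as a replicate block left 0 genes and 0 members called (medians 0.36 and 1.14). Same-numbered tumours did not deviate together from their group means (r = -0.14, -0.249 and -0.0367 across genes), so tumour numbers were not taken as pairs, and no tumour correlated best with its own number. The type I and gamma medians were 0.17 and 0.68 after quantile normalization, 0.54 and 1.32 centred on the array median, and 0.06 and 0.84 centred on the 75th percentile, where the median of all genes moved from -0.12 to 0.06 and -0.42. Leaving out each tumour gave 0 to 4 genes called, type I medians of 0.13 to 0.84 and gamma medians of 0.42 to 1.72. Members that reversed on an omission ranged over the 6 omissions as follows: Ifit1 -0.1 to 1.17, Oas3 -0.54 to 0.83, Ifi44 -0.08 to 0.86, Gbp3 -0.04 to 2.34, Ddx58 -0.15 to 1.04, Ifit3 -0.28 to 0.57 and Oas1a -0.2 to 0.13. With a single control tumour the spread comes from the 3 Bmp4 tumours alone and the lone control is assumed to vary like them, so those counts of calls support nothing. Against control tumour 3 alone, Ifit1 (-0.10), Ifit2 (-0.11), Ifit3 (-0.71), Oas3 (-1.24), Ifi44 (-0.78) and Ddx58 (-0.41) reversed. Control tumour 2 as the only control gave 356 genes called, 0 members and a gamma median of 0.31, with reversed differences for Ifit1 (-0.10), Oasl2 (-0.01), Stat2 (-0.20), Cxcl11 (-0.07), Gbp2 (-0.24), Gbp3 (-0.24), Ido1 (-0.30) and Oas1a (0.15). Quantile normalization reversed Ifit3 (-0.40), Ifi44 (-0.29) and Gbp6 (-0.42), median centring Oas1a (0.15), and 75th percentile centring Ifit3 (-0.16), Mx2 (-0.09), Oas3 (-0.16), Stat2 (-0.11) and Gbp6 (-0.16). Averaging probe sets reversed Rsad2 (0.01), Ifi35 (0.23) and Cxcl11 (-0.12).

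Control tumour 2 as the only control and the following settings, all without control tumour 1, were chosen after seeing the data. Quantile normalization then called 6 genes, with a gamma median of 0.35, and reversed Ifit1 (-0.22), Ifit3 (-0.00026), Oas3 (-0.57), Ifi44 (-0.20), Gbp3 (-0.13) and Ddx58 (-0.29). The replicate block then called 0 genes, with a gamma median of 0.35, and reversed Ifit1 (-0.13), Oas3 (-0.59), Stat2 (-0.02), Ifi44 (-0.05) and Ddx58 (-0.19). The mean of probe sets called 7 genes and reversed Ifit1 (-0.10), Oas3 (-0.54), Ifi44 (-0.08), Cxcl11 (-0.15), Gbp3 (-0.04) and Ddx58 (-0.19), and trend and robust options called 7 genes and reversed Ifit1 (-0.10), Oas3 (-0.54), Ifi44 (-0.08), Gbp3 (-0.04) and Ddx58 (-0.15). The cause of these reversals was not tested. In all, 17 of 29 members reversed somewhere. Levels below the 25th percentile of an array are limited by background.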

Other observations

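Isg15, Usp18 and Cxcl10 are widely used interferon-stimulated genes that were left out of the counts above, because the authors' deposited table lists their probe sets with further, predicted loci. Their signal cannot be assigned to a single gene. The probe set with Cxcl10, another ligand of CXCR3, gave 5.85, 10.10 and 9.22 for control tumours 1 to 3, and 9.85, 9.23 and 9.61 for Bmp4 tumours 1 to 3. Control tumour 2 was the highest of the 6, and the difference was 1.17 with all 6 arrays and -0.10 without control tumour 1. The probe set with Usp18, a protease that removes ISG15 from proteins and dampens the type I receptor, was at 5.99, 9.02 and 9.30 in the controls and 9.39, 9.13 and 8.85 in the Bmp4 group, and differed by 1.02 and -0.03. The probe set with Isg15, a ubiquitin-like modifier, was nearly level, at 9.40, 8.67 and 9.08 in the controls and 8.94, 8.93 and 8.92 in the Bmp4 group, and differed by -0.12 and 0.05. A further probe set with Gbp6 and a predicted locus, 1434380_at, differed by 1.62 and 0.41.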
